A study of Mus musculus with 8 samples.

Results

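The p53 pathway and the GADD45 family were followed through a set of 32 genes in mouse kidney cells given hypertonic medium. The members were found by gene symbol in the deposited table of raw counts. All 32 were among its 15288 genes, and all 32 passed the filter on low counts that left 14024 genes for testing. The cells were a mouse inner medullary collecting duct line, named IMCD in the labels, derived from the last segment of the renal tubule. Every group was kept for 12 h in DMEM without serum. The control group received no added NaCl, and the NaCl group received 100 mmol NaCl, an amount the labels give without a volume. Each group had 4 libraries, numbered 1 to 4 in control and 5 to 8 in NaCl. Nothing in the labels says that they came from separate cultures, so the p-values measure the spread between these libraries, which may be technical. A widely used mouse line of this segment carries the simian virus large T antigen, a protein that binds p53. The labels do not say whether the present line is that line.

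The transcription factor p53 is kept low by the ubiquitin ligase Mdm2 and its partner Mdm4, and is stabilised when DNA is damaged or a cell is stressed. It then switches on genes that stop the cell cycle, repair DNA or kill the cell, together with genes such as Mdm2 and Ppm1d that shut p53 down again. GADD45 proteins are small stress sensors, partly under p53 control, that bind cell cycle proteins and the kinase Map3k4 upstream of p38 and JNK. In the renal medulla, high NaCl is known to cause DNA breaks and to slow the cell cycle.

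Library totals lay between 35.3 M and 47.6 M counts, with the highest total in control replicate 1 and the lowest in NaCl replicate 5. Of 15 collecting duct markers, 14 were in the table. Krt18 (217 CPM in control, the count scaled to 1 M counts per library), Pax8 (160 CPM) and Tfcp2l1 (130 CPM) were well expressed, whereas Aqp2 had at most 15 counts and Cdh1 at most 30 counts in any library. Elf5 was not in the table. The collecting duct markers summed to 659 to 818 CPM in control and 840 to 912 CPM in NaCl libraries, and of 12 tested 5 were called higher and 2 lower. Among the abundant ones Pax2 (78.8 to 185 CPM) and Pax8 (160 to 231 CPM) rose and Tfcp2l1 (130 to 101 CPM) fell, while Krt18 (217 and 205 CPM) and Krt8 (109 and 96.5 CPM) were not called. Fibroblast markers (6 of 7 in the table, mostly Col1a1) summed to 3128 to 3635 CPM and 2820 to 3254 CPM. Of the 6, Col1a1 and Pdgfra were called lower, Pdgfrb higher (37.5 to 61.1 CPM) and 3 were not called. Immune markers (3 of 5) summed to 5.95 to 7.57 CPM and 15.1 to 15.7 CPM, a difference carried by Ptprc, while Adgre1 and Cd3e were not in the table. Proximal tubule markers (3 of 5) summed to 162 to 205 CPM and 155 to 177 CPM, endothelial markers (1 of 4) to 0.356 to 0.797 CPM and 0.191 to 0.530 CPM, and 0 of 5 intercalated cell markers were in the table. The part of these markers in the results that follow was not tested.

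The response of the 32 genes was uneven and mostly downward. By the quasi-likelihood F test of edgeR, with p-values adjusted over all genes tested after Benjamini and Hochberg, 14 members were lower with NaCl, 4 were higher and 14 did not pass an adjusted p-value of 0.05. Thus 56.25% of members were called, where 34.1% of all genes tested were called. The lower calls were 43.75% of members against 17.2% of all genes, and the higher calls 12.5% against 16.9%. The median log2 fold change was -0.10 for the members and 0.00287 for all genes tested. Together the members took 0.184 to 0.190% of counts in control libraries and 0.173 to 0.177% in NaCl libraries. In bulk RNA, fewer cells expressing a gene and less RNA per cell cannot be told apart.

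The 4 genes that rose were Gdf15, Ppm1d, Sesn1 and Btg2. The genes that fell included Eda2r, Plk2, Cdkn1a, Ccng1 and all 3 Gadd45 genes, while 0 of the 5 DNA repair genes were called by edgeR, by DESeq2 or by limma-voom, and 0 had an unadjusted p under 0.05 with edgeR. Of the 14 lower genes, 4 fell by more than 1.5-fold (Eda2r, Plk2, Gadd45b and Pmaip1) and 1 by more than 2-fold (Eda2r), and of the 4 higher genes 2 rose by more than 1.5-fold and 1 by more than 2-fold (Gdf15). Of all genes tested, 2.85% were called lower and 4.17% higher by more than 1.5-fold, and 1.16% and 2.04% by more than 2-fold. The control and NaCl libraries did not overlap in 17 members, 13 lower and 4 higher, against 33.4% of all genes tested. Phlda3 and Fas were called lower although single libraries of the groups overlapped, and Aen did not overlap but was not called.

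**Figure D1:**
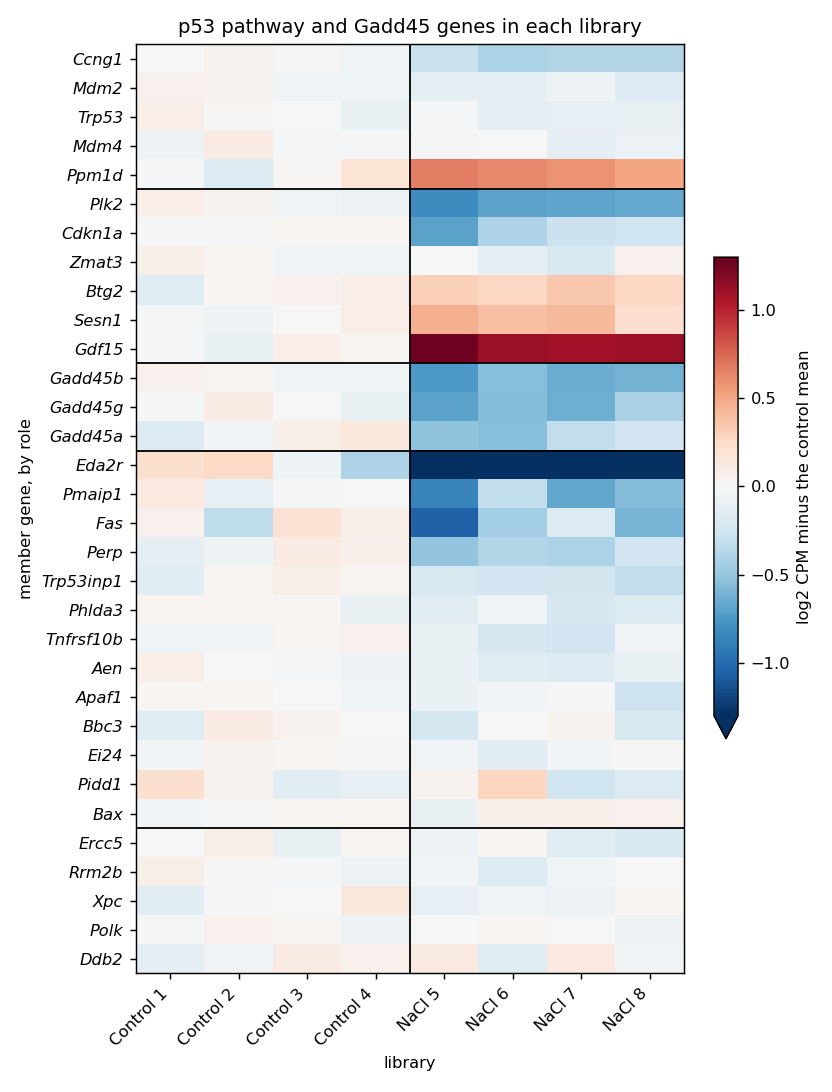
Colour shows log2 CPM minus the mean of the 4 control libraries for each of the 32 members (rows, grouped by role in the order p53 and its feedback, arrest and growth, Gadd45, cell death, repair) in each of the 8 libraries (columns). Gdf15, Ppm1d, Sesn1 and Btg2 are red in all 4 NaCl libraries, Eda2r lies beyond the blue end of the scale in NaCl, and the 5 repair genes stay near white.

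**Figure D2:**
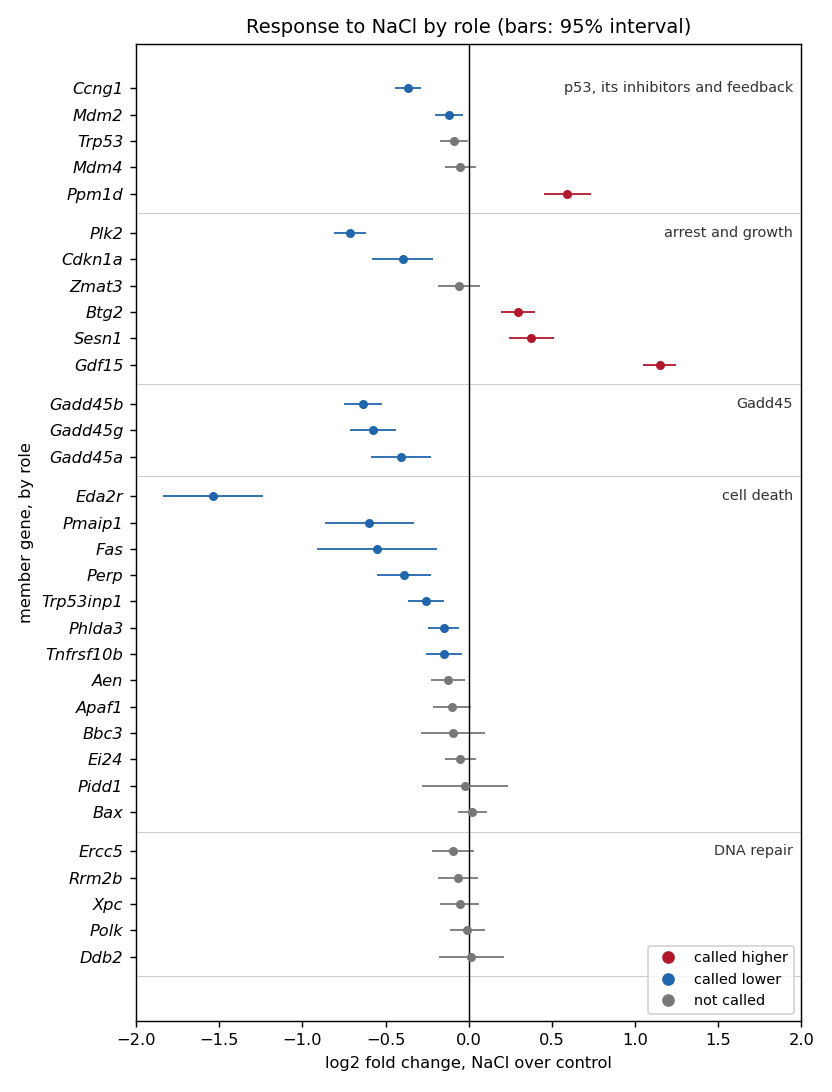
Points give the log2 fold change (NaCl over control) of each member from the edgeR fit, and bars its 95% interval, grouped by role. The 3 Gadd45 genes all lie below 0, the cell death genes run from Eda2r at -1.54 to Bax at 0.02, and the intervals of the 5 repair genes cross 0.

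The gene for p53 itself and its direct inhibitors moved little. Trp53 had 153, 146, 145 and 136 CPM in control replicates 1 to 4 and 143, 133, 135 and 135 CPM in NaCl replicates 5 to 8. The groups overlapped, and the log2 fold change was -0.09 (95% interval -0.17 to -0.00460; adjusted p = 0.0973). Mdm4, which binds p53 and blocks its activation domain, had 81.7 ± 4.32 CPM in control and 78.9 ± 2.93 CPM in NaCl (SD, n = 4 each; 95% interval of the log2 fold change -0.14 to 0.04). Mdm2, the ligase that marks p53 for destruction and is itself a p53 target, had 103, 102, 95.8 and 94.9 CPM in control and 91.0, 90.7, 94.2 and 87.7 CPM in NaCl. All NaCl libraries lay below all controls, but by a narrow margin, and the log2 fold change was -0.12 (SE 0.039; adjusted p by edgeR = 0.0267).

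Mdm2 no longer passed when control replicate 1 (adjusted p = 0.0690) or control replicate 2 (0.0761) was left out. The same held on leaving out NaCl replicate 6 (0.0599) or 8 (0.0736), or both control replicate 1 and NaCl replicate 5 (0.102). Its call was also lost with library totals in place of TMM factors (0.0573) and with counts thinned to the smallest library (0.0642). Trp53 was called lower without control replicate 4 (log2 fold change -0.12; adjusted p = 0.0241) and with a covariate for library number after centring it per group (-0.09; 0.0216). With the library number as a linear drift over both groups in the fit, Mdm2 was at -0.01 (0.937) and Trp53 at 0.06 (0.538). In the other alternatives Mdm2 lay between -0.14 and -0.10. The library number is correlated with the group (r = 0.873), so the drift fit only partly separates a drift from the group difference.

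Both remaining feedback genes changed clearly and in opposite directions. Ppm1d, which encodes the phosphatase Wip1 that removes activating phosphates from p53 and its kinases, had 27.6, 24.7, 28.2 and 31.7 CPM in control and 44.3, 43.1, 42.0 and 39.8 CPM in NaCl. Every NaCl library was above every control, and the gene rose 1.51-fold (log2 fold change 0.59, SE 0.066; adjusted p by edgeR = 3.42e-06). Ccng1, which encodes cyclin G1, a p53 target that helps to activate Mdm2, had 188, 196, 192 and 182 CPM in control and 155, 142, 145 and 145 CPM in NaCl. It fell in all 4 NaCl libraries, at log2 fold change -0.37 (SE 0.037; adjusted p by edgeR = 1.03e-06). Thus of 5 genes of the p53 core, 2 were called lower, 1 higher and 2 not called, with a median log2 fold change of -0.09. That is 60% called, against 34.1% of all genes tested.

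The genes for cell cycle arrest and growth control split into 3 that rose, 2 that fell and 1 that was not called, with a median log2 fold change of 0.12. The background over all genes tested was 16.9% called higher and 17.2% called lower. Cdkn1a (ENSMUSG00000023067) encodes p21, the cyclin-dependent kinase inhibitor through which p53 halts the cell cycle. The bases before an upstream annotated start of Cdkn1a are shown because they hold a pair of CATG cores, the letters at the centre of p53 sites. They lie at chr17:29090729-29090975 on the plus strand (GRCm38.p6, RefSeq window, ended before the first start in GENCODE M21). The letters CATG, then 6 bases of any kind, then CATG again, which read the same on both strands, were searched in the 250 bases before the start of each gene. The capitals mark the match with 3 bases on each side.
Cdkn1a: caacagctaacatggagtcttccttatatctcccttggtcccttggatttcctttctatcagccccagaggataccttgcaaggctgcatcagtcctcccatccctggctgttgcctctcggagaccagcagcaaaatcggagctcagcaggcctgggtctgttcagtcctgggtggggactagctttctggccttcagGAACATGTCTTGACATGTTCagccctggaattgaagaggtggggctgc

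These letters were found in 1 of the 24 members with a window in the table, Cdkn1a, and in 0.570% of the 27025 genes with a window. A single decamer of the p53 response element, which can itself contain one of these cores, was found on either strand upstream of 11 of the 24 members and of 8.2% of all genes. Of those 11, 4 were called lower (Mdm2, Ccng1, Cdkn1a and Gadd45a), 2 higher (Ppm1d and Sesn1) and 5 not called (Trp53, Bax, Aen, Ei24 and Polk), where 17.2% of all genes tested were called lower and 16.9% higher. A match of letters is a description and does not show binding.

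Cdkn1a had 144, 143, 148 and 148 CPM in control and 90.3, 111, 120 and 122 CPM in NaCl. The controls lay within a few CPM of each other, and all NaCl libraries were lower, with NaCl replicate 5 the lowest. The log2 fold change was -0.40 (SE 0.081; adjusted p by edgeR = 0.00421). Without NaCl replicate 5 the gene was still called, and over the alternatives other than the drift fit its log2 fold change lay between -0.45 and -0.31. With the drift in the fit it was -0.70 (adjusted p = 0.00250). Plk2, a polo-like kinase of the centriole cycle and a p53 target, had 132, 128, 120 and 118 CPM in control and 70.6, 76.7, 77.5 and 78.6 CPM in NaCl. This wide gap gave a log2 difference of -0.72 (SE 0.045; adjusted p by edgeR = 3.65e-09).

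The arrest and growth genes that rose were led by Gdf15 (ENSMUSG00000038508), which encodes a secreted stress cytokine of the TGF-beta family and is a target of p53 and of other stress factors. Gdf15 had 62.9, 59.9, 67.7 and 65.3 CPM in control and 153, 139, 137 and 138 CPM in NaCl. All NaCl libraries were far above all controls, NaCl replicate 5 the highest, and the mean rose 2.21-fold (log2 fold change 1.15, SE 0.047; adjusted p by edgeR = 1.55e-11). Sesn1, whose product sestrin 1 restrains the growth kinase complex mTORC1, had 21.3, 20.6, 21.6 and 22.9 CPM in control and 29.7, 28.3, 28.8 and 25.2 CPM in NaCl (log2 fold change 0.38, SE 0.064; adjusted p by edgeR = 2.47e-04). Btg2, an antiproliferative protein that recruits the deadenylase that shortens mRNA tails, had 66.0, 74.6, 76.2 and 77.8 CPM in control and 91.3, 88.3, 93.6 and 88.9 CPM in NaCl (log2 fold change 0.30, SE 0.048; adjusted p by edgeR = 1.44e-04). Neither gene overlapped between the groups. With the drift in the fit Btg2 was at 0.16 and no longer called (adjusted p = 0.154). Zmat3, an RNA-binding p53 target, had 36.9 ± 1.65 and 35.4 ± 2.77 CPM (SD, n = 4 each; 95% interval of the log2 fold change -0.19 to 0.07).

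The 3 Gadd45 genes all fell. Of all genes tested 17.2% were called lower, and 16.9% were lower in NaCl without overlap of the groups. Gadd45a (ENSMUSG00000036390) is the family member with a p53 site in its gene body, while Gadd45b and Gadd45g respond mainly to cytokine and growth factor signals. Gadd45a had 72.5, 79.8, 86.1 and 89.7 CPM in control and 56.9, 55.7, 65.5 and 68.9 CPM in NaCl. The highest NaCl library was close under the lowest control, and the log2 fold change was -0.41 (SE 0.082; adjusted p by edgeR = 0.00272). Gadd45b (ENSMUSG00000015312) had 42.9, 42.3, 39.9 and 40.3 CPM in control and 24.7, 28.1, 26.5 and 27.1 CPM in NaCl, a wide gap at log2 fold change -0.64 (SE 0.054; adjusted p by edgeR = 1.27e-07). Gadd45g (ENSMUSG00000021453) had 37.9, 41.2, 38.5 and 35.8 CPM in control and 23.6, 25.9, 24.7 and 28.6 CPM in NaCl, again without overlap, at log2 fold change -0.58 (SE 0.064; adjusted p by edgeR = 3.27e-06). Each of the 3 kept its direction and its call in all 20 alternative fits. With the drift in the fit Gadd45a moved to -0.83 (adjusted p = 2.68e-10).

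Whether the 3 paralogs fell to different extents was tested on their ratios in each library. The log2 ratio of Gadd45a to Gadd45b was 0.98 ± 0.18 in control and 1.21 ± 0.16 in NaCl (SD, n = 4 each). A two-sided exact permutation gave p = 0.114, or 0.300 after adjustment over the 3 pairs. The range was 0.76 to 1.15 over control libraries and 0.99 to 1.35 over NaCl libraries, so the groups overlapped. The ratio of Gadd45a to Gadd45g was 1.09 ± 0.18 and 1.26 ± 0.12 (exact permutation p = 0.200, adjusted 0.300), and that of Gadd45b to Gadd45g was 0.11 ± 0.07 and 0.05 ± 0.09 (exact permutation p = 0.400, adjusted 0.400). No pair passed, with a smallest possible p-value of 0.0286 before adjustment for 4 libraries against 4. A single pair at that value would not pass 0.05 after adjustment over the 3 pairs, so the test could not separate 1 pair alone. The test therefore did not separate the falls of the 3 genes, which does not show that the genes fell equally. Over the alternatives other than the drift fit, the log2 fold change of Gadd45a lay between -0.47 and -0.36. That of Gadd45b lay between -0.66 and -0.59, and that of Gadd45g between -0.63 and -0.54. Only with the drift, which is correlated with the group, was Gadd45a the lowest of the 3. With the drift the log2 fold change of Gadd45a (-0.83) was lower than that of Gadd45b (-0.61) and Gadd45g (-0.65), and the ratios were not tested with the drift.

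The upstream sequences of the 3 Gadd45 genes are shown because the genes moved together. They were taken from the RefSeq windows of GRCm38.p6 and ended before the first start in GENCODE M21, at chr6:67037458-67037657 (minus strand), chr10:80929841-80930072 (plus) and chr13:51846425-51846674 (plus). Capitals mark the pentamer CCAAT, searched on both strands.
Gadd45a: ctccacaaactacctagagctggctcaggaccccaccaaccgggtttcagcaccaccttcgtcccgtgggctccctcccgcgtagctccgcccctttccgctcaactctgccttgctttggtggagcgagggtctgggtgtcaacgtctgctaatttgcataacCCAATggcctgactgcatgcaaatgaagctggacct
Gadd45b: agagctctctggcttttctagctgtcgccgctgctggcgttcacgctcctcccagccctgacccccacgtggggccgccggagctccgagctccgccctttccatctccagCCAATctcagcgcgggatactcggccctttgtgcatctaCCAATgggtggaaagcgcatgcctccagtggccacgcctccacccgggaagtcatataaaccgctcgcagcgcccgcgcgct
Gadd45g: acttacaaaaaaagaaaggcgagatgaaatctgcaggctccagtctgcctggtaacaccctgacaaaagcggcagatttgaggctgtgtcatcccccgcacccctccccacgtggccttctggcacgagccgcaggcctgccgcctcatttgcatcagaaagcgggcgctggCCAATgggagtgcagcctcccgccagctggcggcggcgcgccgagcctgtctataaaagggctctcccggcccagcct
The pentamer occurred 1 time for Gadd45a, 2 times for Gadd45b and 1 time for Gadd45g. It was also upstream of 37.5% of all genes with a window and of 14 of the 24 members. Gadd45a overlaps the annotated gene E230016M11Rik on the opposite strand over 19.1% of its exon bases, and whether strand was used in counting is not given in the sources used here. E230016M11Rik had 1.54 ± 0.200 CPM in control and 1.47 ± 0.484 CPM in NaCl libraries (SD, n = 4 each; adjusted p by edgeR = 0.873), far below Gadd45a.

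**Figure D3:**
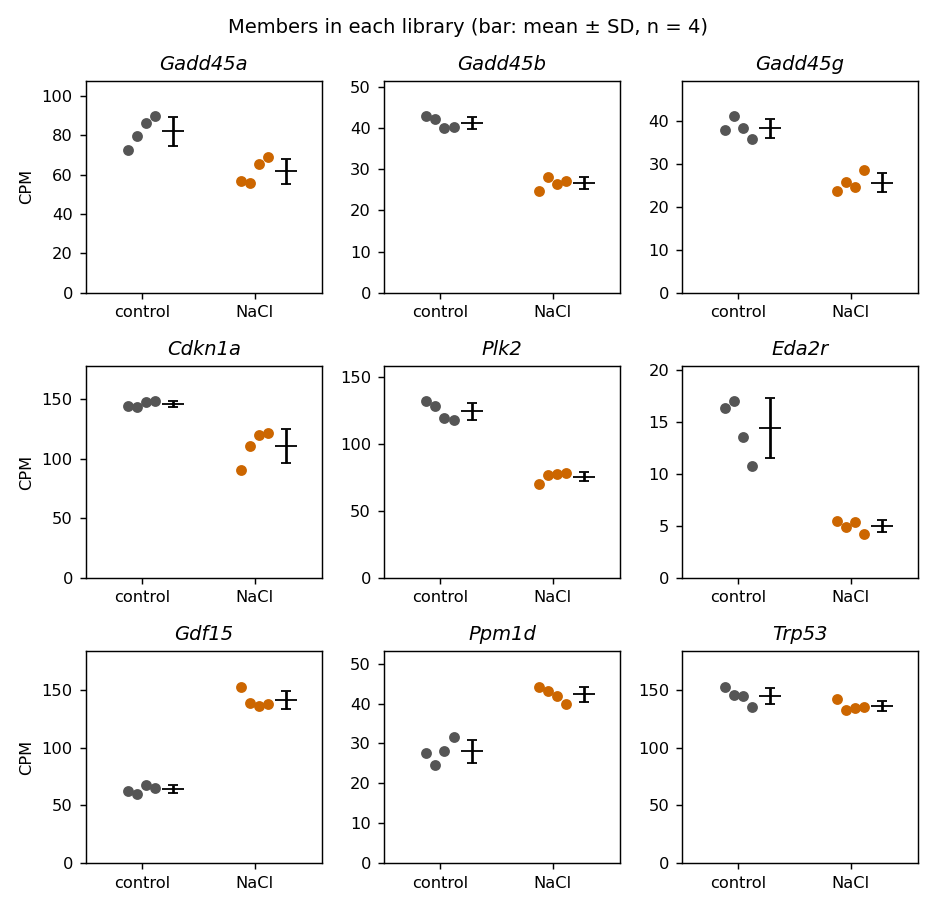
Points are single libraries in CPM (vertical axis, starting at 0), in replicate order, for 9 members in control and NaCl, with the mean ± SD (n = 4) beside them. The 3 Gadd45 genes, Cdkn1a, Plk2 and Eda2r are lower in every NaCl library, Gdf15 and Ppm1d are higher in every NaCl library, and Trp53 overlaps.

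Of the 13 cell death genes, 7 fell and 6 were not called by edgeR, with a median log2 fold change of -0.15. The lower calls were 53.8% of these genes against 17.2% of all genes tested. None rose by edgeR, DESeq2 or limma-voom (0 of 13 each), and 0 were higher at an unadjusted p under 0.05 with edgeR. The largest fall was that of Eda2r. Eda2r (ENSMUSG00000034457), a receptor for the A2 form of ectodysplasin and a p53 target, had 16.4, 16.98, 13.5 and 10.8 CPM in control and 5.47, 4.90, 5.33 and 4.17 CPM in NaCl. The controls were spread widely, with control replicate 4 the lowest, yet all lay well above NaCl, and the log2 fold change was -1.54 (SE 0.14; adjusted p by edgeR = 1.01e-06). With the drift in the fit it was -0.85 (adjusted p = 0.00162). Fas, the receptor for Fas ligand, had 5.11, 3.91, 5.61 and 5.20 CPM in control and 2.34, 3.59, 4.34 and 3.22 CPM in NaCl. Control replicate 2 lay below NaCl replicate 7, and the log2 fold change was -0.55 (SE 0.17; adjusted p by edgeR = 0.0194). The Fas call was lost without control replicate 3 (adjusted p = 0.0596) or NaCl replicate 5 (0.0547), and the value was -0.94 with the drift in the fit. Tnfrsf10b, the mouse receptor for the death ligand TRAIL, had 53.9, 54.2, 56.4 and 57.7 CPM in control and 52.1, 47.8, 46.8 and 53.9 CPM in NaCl. The groups were separated narrowly, at 53.93 and 53.95 CPM (log2 fold change -0.15, SE 0.051; adjusted p by edgeR = 0.0337). Tnfrsf10b no longer passed when control replicate 3 (0.0741) or 4 (0.0780), or NaCl replicate 6 (0.107) or 7 (0.116), was left out. It was called at -0.24 with the drift in the fit (0.0470).

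Of 4 genes of the mitochondrial route to cell death, Pmaip1 was called lower and Bbc3, Bax and Apaf1 were not called. Of all genes tested, 17.2% were called lower and 34.1% in either direction. Pmaip1, which encodes the BH3-only protein Noxa, had 7.17, 6.07, 6.43 and 6.55 CPM in control and 3.57, 5.25, 4.07 and 4.41 CPM in NaCl. No library overlapped, and the log2 fold change was -0.60 (SE 0.13; adjusted p by edgeR = 0.00151), while the drift left the value at -0.60 but not called (adjusted p = 0.0872). Bbc3, which encodes the BH3-only protein Puma, had 11.8 ± 0.898 CPM in control and 11.02 ± 1.08 CPM in NaCl (SD, n = 4 each). Its groups overlapped, and the 95% interval of its log2 fold change ran from -0.29 to 0.10 (adjusted p = 0.463). Bax, the pore-forming effector of the mitochondrial outer membrane, had 107, 108, 112 and 112 CPM in control and 102, 115, 114 and 114 CPM in NaCl. Its 95% interval was -0.06 to 0.11 (adjusted p = 0.723), and 12.2% of its exon bases lie in the annotated gene Gm45808, which is not among the genes of the table. Apaf1, the scaffold of the apoptosome, had 52.9 ± 1.58 and 49.4 ± 3.94 CPM (SD, n = 4 each), with a 95% interval of -0.22 to 0.02.

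Among the other cell death genes, Perp encodes a desmosome-associated membrane protein needed for p53-driven death in some cell types. Perp had 19.5, 20.3, 22.9 and 22.2 CPM in control and 14.8, 16.3, 15.9 and 17.8 CPM in NaCl. All NaCl libraries were lower (log2 fold change -0.39, SE 0.076; adjusted p by edgeR = 7.62e-04), and the value was -0.69 with the drift in the fit. Trp53inp1, a nuclear protein that promotes phosphorylation of p53 and also acts in autophagy, had 59.1, 67.3, 69.2 and 67.2 CPM in control and 56.6, 55.3, 55.5 and 52.5 CPM in NaCl, and likewise fell in every library (log2 fold change -0.26, SE 0.050; adjusted p by edgeR = 7.91e-04). Phlda3, which competes with Akt for membrane lipids, had 92.4, 91.7, 91.8 and 84.3 CPM in control and 81.9, 86.3, 77.2 and 79.3 CPM in NaCl. Control replicate 4 lay below NaCl replicate 6, and the call (log2 fold change -0.15, SE 0.044; adjusted p by edgeR = 0.0140) was lost without NaCl replicate 7 (0.0551) and with the drift in the fit (-0.01; 0.952). Aen, an exonuclease of apoptotic DNA breakdown, had 44.8 ± 2.08 and 41.1 ± 1.22 CPM (SD, n = 4 each) with a log2 fold change of -0.13 (adjusted p = 0.0564). It was called without control replicate 4 (0.0360), by DESeq2 (0.0409) and with the centred library number (0.0255). Ei24, an endoplasmic reticulum protein, and Pidd1, the scaffold of the PIDDosome, were not called, with 95% intervals of -0.14 to 0.04 and -0.28 to 0.24.

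The 5 DNA repair genes showed no change past the test, and their median log2 fold change was -0.05. Of all genes tested 34.1% were called in either direction, so most genes were likewise not called. Ddb2, which recognises ultraviolet lesions, had 9.47, 10.0, 11.1 and 10.8 CPM in control and 11.2, 9.25, 11.2 and 10.1 CPM in NaCl. Xpc, which starts global nucleotide excision repair, had 45.3, 49.4, 49.97 and 55.0 CPM in control and 46.4, 47.9, 47.4 and 50.6 CPM in NaCl. The groups overlapped in both genes, and the 95% intervals of the log2 fold change were -0.18 to 0.21 for Ddb2 and -0.17 to 0.06 for Xpc. For Ercc5, the 3-prime nuclease of excision repair, the interval was -0.22 to 0.03. For Polk, a lesion-bypass DNA polymerase, it was -0.12 to 0.10. For Rrm2b, the p53-inducible subunit of ribonucleotide reductase, it was -0.19 to 0.06. With the drift in the fit Xpc was called lower (log2 fold change -0.30; adjusted p = 0.0108). Ddb2 shares 23.8% of its exon bases with Acp2 on the opposite strand, so without known strand use its counts are uncertain. Acp2 had 47.1 ± 0.990 CPM in control and 49.6 ± 1.499 CPM in NaCl (SD, n = 4 each).

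Levels of different genes were compared per length, as CPM per kb of annotated exon. All annotated exons of a gene counted toward its length. This length exceeds the longest transcript for some members, such as Cdkn1a (3553 against 2080 bases) and Gadd45a (1764 against 1223), and equals it for others, such as Ccng1 (3512 bases). The order of the members can depend on this choice, and no other length was used. In control, Bax was highest at 69.5 ± 1.61, ahead of Phlda3 at 57.8 ± 2.46, Ccng1 at 53.9 ± 1.70 and Gadd45a at 46.5 ± 4.30 CPM per kb (SD, n = 4 each). The libraries of Phlda3 (54.1 to 59.3) and Ccng1 (51.8 to 55.8) overlapped. Cdkn1a followed at 41.0 ± 0.696 and Trp53 at 35.9 ± 1.79 CPM per kb. With NaCl, Gdf15 went from 34.5 ± 1.82 to 76.4 ± 4.20 CPM per kb, next to Bax at 70.6 ± 3.77. Within the Gadd45 family, Gadd45a was the most abundant per length in both groups (35.01 ± 3.67 in NaCl), then Gadd45g (32.7 ± 1.88 in control and 21.9 ± 1.83 in NaCl) and Gadd45b (26.0 ± 0.917 and 16.7 ± 0.892). The death genes Eda2r, Fas, Pmaip1 and Pidd1 were the 4 lowest members in control, between 1.85 and 2.44 CPM per kb. Eda2r ended at 0.843 ± 0.0993 CPM per kb in NaCl.

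**Figure D4:**
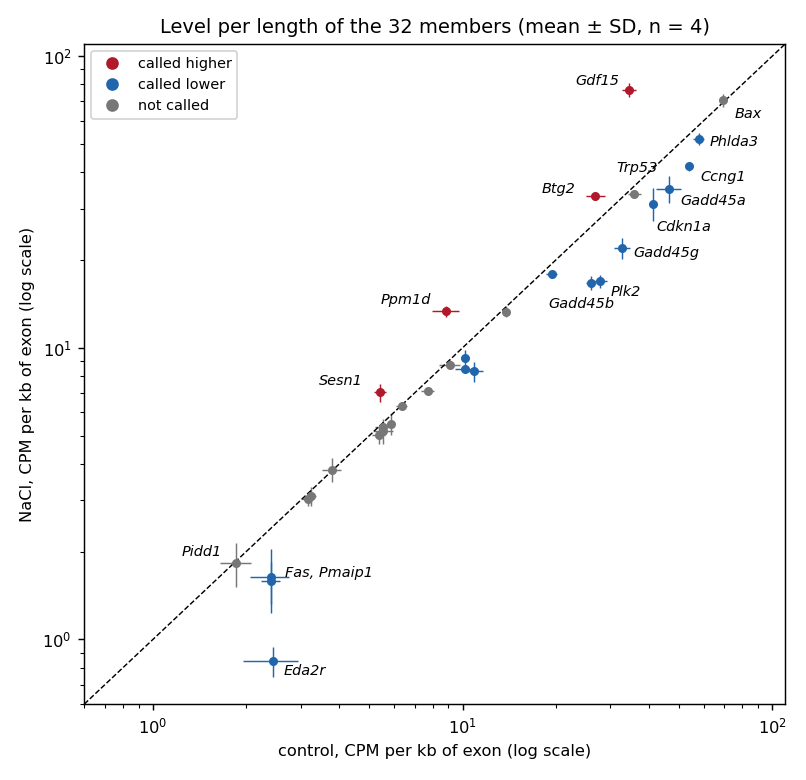
Each point is a member, placed by its mean CPM per kb of exon in control (horizontal) and in NaCl (vertical), both on log scales, with SD bars over 4 libraries and a dashed line of equality. Gdf15, Btg2, Ppm1d and Sesn1 lie above the line, and Eda2r, the member farthest below it, is also among the least abundant.

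Members differed in how tightly the libraries of a group agreed. In control the coefficient of variation (SD over mean) ran from 1.70% for Cdkn1a to 19.9% for Eda2r. In NaCl it ran from 2.69% for Btg2 to 24.6% for Fas. Cdkn1a went from the tightest member in control to 13.03% in NaCl, where NaCl replicate 5, the library with the fewest counts, was lowest. Over the 32 members, NaCl replicate 5 was the lowest NaCl library 10 times and the highest 8 times, and the other NaCl libraries were lowest 7 to 8 times and highest 6 to 10 times. Without control replicate 1 and NaCl replicate 5, a fit added after the data had been seen, 12 members were lower and 4 higher, with 4186 of all genes called against 4789 with all libraries.

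Other genes of the pathway were taken from lists that the members do not overlap. Of 30 further p53 targets, 15 fell, 2 rose and 13 were not called, with a median log2 fold change of -0.17. The lower calls were 50% of these targets against 17.2% of all genes tested, and the higher calls 6.67% against 16.9%. Tap1, a subunit of the peptide transporter for MHC class I and also an interferon-responsive gene, fell most, from 60.5 ± 4.79 to 26.0 ± 2.09 CPM (SD, n = 4 each; log2 fold change -1.22; adjusted p by edgeR = 1.11e-09). Sulf2, a sulfatase of heparan sulfate, fell from 11.8 ± 1.195 to 6.06 ± 0.809 CPM (log2 fold change -0.96; adjusted p by edgeR = 4.21e-06), and was at -0.51 with the drift in the fit (0.0468). The 2 that rose were Ninj1, which acts in plasma membrane rupture (60.1 ± 5.68 to 71.8 ± 1.62 CPM; log2 fold change 0.26; adjusted p by edgeR = 0.00209), and Ikbip (77.2 ± 1.33 to 90.2 ± 3.61 CPM; log2 fold change 0.22; adjusted p by edgeR = 2.74e-04). Neither was called with the drift in the fit (adjusted p = 0.992 and 0.191).

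Of 21 regulators of p53, 8 rose, 0 fell and 13 were not called, with a median log2 fold change of 0.10. The higher calls were 38.1% of the regulators against 16.9% of all genes tested, and the calls in both directions 38.1% against 34.1%. No regulator was called lower by edgeR, DESeq2 or limma-voom (0 of 21), and 1 was lower at an unadjusted p under 0.05 with edgeR. In other edgeR fits 1 was called lower on thinned counts, without NaCl replicate 6, with the drift, or with the centred library number. Trim24, a ubiquitin ligase for p53, rose from 64.2 ± 2.27 to 82.7 ± 2.90 CPM (SD, n = 4 each; log2 fold change 0.36; adjusted p by edgeR = 3.86e-06). Ep300, a histone acetyltransferase and p53 coactivator, rose from 148 ± 5.24 to 176 ± 3.78 CPM (log2 fold change 0.26; adjusted p by edgeR = 2.85e-05). The smallest of the 8 rises were those of Atm, the kinase that signals DNA breaks, from 49.1 ± 3.43 to 54.99 ± 4.07 CPM (log2 fold change 0.16; adjusted p by edgeR = 0.0427), and Sirt1, a deacetylase of p53, from 29.7 ± 0.761 to 33.96 ± 3.99 CPM (log2 fold change 0.19; adjusted p by edgeR = 0.0454). Both overlapped between the groups and were lost with limma-voom (adjusted p = 0.0512 for Atm and 0.0607 for Sirt1), while limma on the log2 of the deposited normalized values kept Atm (0.0429) and not Sirt1 (0.0536). Atm was also lost when control replicate 2 (0.107), 3 (0.123) or 4 (0.102) or NaCl replicate 5 (0.123) or 6 (0.138) was left out, and kept without control replicate 1, NaCl replicate 7 or NaCl replicate 8. Sirt1 was lost on leaving out control replicate 1 (0.0814), 2 (0.0650), 3 (0.0894) or 4 (0.0862) or NaCl replicate 5 (0.164), 6 (0.0795) or 7 (0.0994), and kept without NaCl replicate 8. Its log2 fold change was 0.12 without NaCl replicate 5. Both were called at larger values with the drift in the fit, 0.45 for Atm (adjusted p = 1.54e-04) and 0.45 for Sirt1 (0.00375). Cdkn2a, a gene chosen after its values were seen, encodes the Mdm2 inhibitor p19Arf and the kinase inhibitor p16. Its level was 144 ± 13.1 CPM in control and 154 ± 15.1 CPM in NaCl, and it was not called (adjusted p = 0.395).

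Of 13 partners of the Gadd45 proteins, 3 fell and 10 were not called, with a median log2 fold change of -0.01. The lower calls were 23.1% of the partners against 17.2% of all genes tested, and the calls in both directions 23.1% against 34.1%. By edgeR, DESeq2 and limma-voom 0 of the 13 rose, and 2 were higher at an unadjusted p under 0.05 with edgeR. In other edgeR fits 1 was called higher with library totals, without control replicate 1, or without both control replicate 1 and NaCl replicate 5, and 2 with the drift or with the centred library number. Map2k6, a kinase that activates p38, fell from 18.6 ± 1.78 to 14.3 ± 1.52 CPM (SD, n = 4 each; log2 fold change -0.39; adjusted p by edgeR = 0.00286), and was at -0.76 with the drift in the fit (1.66e-04). Ccnb1, the mitotic cyclin B1, fell from 125 ± 12.9 to 106 ± 6.48 CPM (log2 fold change -0.24; adjusted p by edgeR = 0.0200). The Ccnb1 call was lost without control replicate 2 (0.0544), and with the drift in the fit its log2 fold change was 0.13 (0.176). Mapk9, which encodes a JNK kinase, fell from 48.8 ± 1.17 to 44.4 ± 0.470 CPM (log2 fold change -0.14; adjusted p by edgeR = 0.0202). Its log2 fold change was -0.13 without control replicate 2 (0.0572), -0.13 without NaCl replicate 6 (0.0505) and -0.11 with the drift in the fit (0.411), and it no longer passed in these fits. Map3k4, the kinase that GADD45 proteins bind, was also chosen after its values were seen, and was not called (log2 fold change 0.10; adjusted p = 0.0881).

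**Figure D5:**
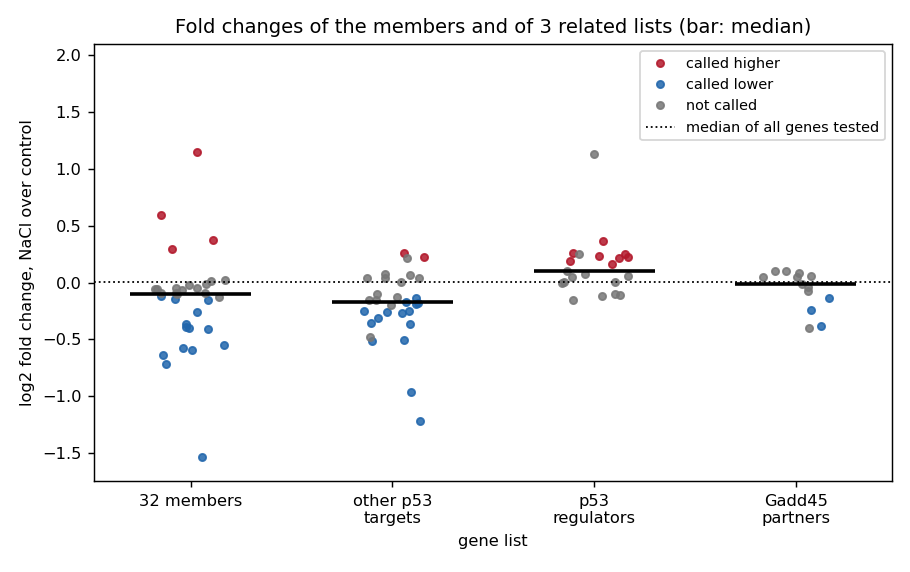
Points are the log2 fold changes (NaCl over control) of the 32 members, 30 other p53 targets, 21 p53 regulators and 13 Gadd45 partners, coloured by call, with a bar at each median and a dotted line at the median of all genes tested. The targets lie mostly below the dotted line with medians of -0.10 and -0.17, and the regulators above it with a median of 0.10.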

How the data were processed

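Counts per Ensembl gene were deposited by the authors as whole numbers for 8 libraries, and a second deposited table held a normalized signal, equal to the count divided by 1 factor per library (0.864 to 1.145). Per the submitters' processing notes, Trim Galore 0.6.7, STAR, DESeq2 1.34.0 and build mm10 were used. The counting program and strandedness are not given in the sources used here. Counts were fitted in R 4.3.3 with edgeR 4.0.16 (filterByExpr at 10 counts, TMM, robust quasi-likelihood F test of NaCl against control), with Benjamini-Hochberg adjustment over 14024 genes and calls at 0.05. CPM used TMM-scaled totals, and log2 CPM a prior count of 2. Alternatives used DESeq2 1.42.0, limma 3.58.1, other scalings, filters and thresholds, thinned counts, left-out libraries and the library number as covariate.

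The members, gene lists and tests were chosen with earlier results of these data known. All members were reported. From each of 3 further lists the 2 called genes at each end of the log2 fold changes were named, and Cdkn2a and Map3k4 were added after their values were seen. Replicate pairs differed by 5.24 to 23.0 times counting noise (chi-square per degree of freedom), so no library was a copy. The value grew with the gap in library number. From control replicate 1 it was 6.50 to replicate 2, 16.8 to replicate 3 and 20.9 to replicate 4. From NaCl replicate 5 it was 8.53 to replicate 6, 14.9 to replicate 7 and 23.0 to replicate 8. The cause of this order within the groups was not tested. The fit was tested on simulated data. Exon lengths and overlaps came from GENCODE M21 (15274 of the 15288 identifiers) and upstream sequences from RefSeq on GRCm38.p6, with 24 of the 32 members matched. Blastn 2.17.0 alignments of at least 75 bases at 98% identity covered at most 4.31% of a member transcript beyond Bax, Cdkn1a, Ddb2, Gadd45a and Rrm2b, which overlap a neighbouring gene. Intervals and p-values do not cover PCR copies, which are not independent molecules.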

Additional observations from a re-analysis of the deposited data

Results flagged for a closer look

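Of 72 sets of 4 libraries, 5 had 1 extreme library separated from its neighbours by more than Dixon's 95% limit for the gap over the range (0.829), and about 3.6 such sets arise by chance. Total counts reached 47.6 M in control replicate 1, while the remaining controls had 41.8 to 42.7 M. NaCl replicate 5 held 35.3 M, while the remaining NaCl libraries had 41.4 to 42.4 M. Gdf15 stood at 153 CPM in NaCl replicate 5, above the 137 to 139 CPM of its group, and the control mean was 63.9 CPM. Bax stood at 102 CPM in the same library, below the 114 to 115 CPM of its group. Phlda3 stood at 84.3 CPM in control replicate 4, below the 91.7 to 92.4 CPM of the remaining controls.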

How the results depend on the processing

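No paired analysis was made because the groups share no replicate number. A match of the libraries by their order within each group was not tested. Over 20 alternative fits the members called lower numbered 10 to 16 and those called higher 3 to 4, against 14 and 4, while 3145 to 6030 of all genes were called. Leaving out single libraries gave 12 to 15 lower and 4 higher, with 4071 to 4634 of all genes called. Of 640 member values, 590 kept direction and call, 23 lost a call, 6 gained one and 21 changed sign. No called member changed sign. At a threshold of 0.01, 10 members were lower, 4 higher and 3145 of all genes called, because fewer pass; cell death genes called lower were then 4 in place of 7, further p53 targets called lower 8 in place of 15, and regulators called higher 5 in place of 8. The cause of the other changes was not tested. With the library number as a linear drift, which is correlated with the group (r = 0.873), 12 members were lower, 3 higher and 3382 of all genes called, and 14 of the 18 calls held in the same direction. There the log2 fold changes of Trp53 (0.0627), Mdm4 (0.00433), Zmat3 (0.0196), Bax (-0.114), Apaf1 (0.0643), Pidd1 (0.463), Ddb2 (-0.0901), Polk (0.0741), Ercc5 (0.0317) and Ccnb1 (0.128) changed sign. With single libraries left out, Pidd1 ran from -0.139 to 0.0514, Ddb2 from -0.0285 to 0.0698 and Polk from -0.0342 to 0.00802. Without both control replicate 1 and NaCl replicate 5, Pidd1 was at 0.0324 and Ddb2 at -0.0618. With library totals Polk was at 0.00105. Over 10 alternatives the Gadd45 ratio differences ran from 0.15 to 0.30 (a to b), 0.12 to 0.25 (a to g) and -0.08 to -0.02 (b to g), and no adjusted p-value was under 0.171. Counting error is larger for rare members such as Fas, with 84 to 244 counts per library.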
